A study of Mus musculus with 18 samples.

Results

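Red cell genes were examined in sorted thymocyte progenitors of fetal and adult mice. The 10 genes were *Hbb-y*, *Alas2*, *Car2*, *Rhag*, *Slc4a1*, *Ermap*, *Hemgn*, *Epor*, *Epb42* and *Klf1*, and every probe set annotated to one of these symbols alone was taken, which gave 15 of the 22626 probe sets and 10 of the 12393 genes with a probe set of their own. The arrays measured early thymic progenitors (ETP), DN2 cells and DN3 cells of C57BL/6 mice, sorted from lineage-depleted thymocytes, with 3 arrays for each of the 6 groups. The 9 fetal arrays came from thymi labelled E14.5, whereas the study's text gives a later embryonic day, and the 9 adult arrays came from female mice aged 4 to 6 weeks. No group carried a transgene, a deletion or a treatment. RNA was taken from 80000 cells per sample, material of 2 fetal or 4 adult sorts was pooled for each array, and the RNA was amplified over repeated cycles. The depletion before sorting included an antibody against TER119, a surface antigen of erythroid cells. The labels number the arrays of each group 1 to 3 without saying what a number stands for, and they call the arrays biological replicates where the study's methods call them technical ones (the p-values below reflect array-to-array variation, part of which could be technical).

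In the mouse embryo the earliest red cells arise in the yolk sac, circulate with a nucleus and carry embryonic globins such as the product of *Hbb-y*, and the later, definitive red cells arise in the fetal liver. A maturing erythroblast is driven by erythropoietin through its receptor (*Epor*) and by transcription factors such as *Klf1*, makes haem from the step catalysed by *Alas2*, and builds a membrane around the anion exchanger of *Slc4a1*, to which protein 4.2 (*Epb42*) and the Rh-associated glycoprotein (*Rhag*) belong. Thymocytes do not make haemoglobin as part of their known programme. *Car2*, a carbonic anhydrase, and *Hemgn*, a nuclear protein, are also used by immature blood progenitors that are not erythroid.

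The deposited values are log2 intensities centred for each probe set on its median over the 18 arrays. A value of 0 is therefore the median array and holds no level of the gene, and values compare arrays of 1 probe set only. A probe set was called when the p-value of limma, after Benjamini-Hochberg adjustment over all 22626 probe sets, was under 0.05 and the means differed at least 1.8-fold. The medians of the arrays lay between -0.09 and 0.05 log2. In sorted bulk samples, fewer cells of a type and less RNA per cell cannot be told apart.

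The promoters of the genes whose differences carry the results are shown because the members share a feature there that the choice of genes did not use. RefSeq sequence of GRCm38.p6, from 250 bases before to 50 bases after the gene's start, was held for 8 of the 10 genes. Capitals mark matches on either strand to the letters bound by GATA factors (AGATAA or AGATAG, and also TGATAA or TGATAG) and to the CACCC-like letters bound by KLF factors (CCNCNCCC).
*Hbb-y*, chr7:103853158-103853457, minus strand: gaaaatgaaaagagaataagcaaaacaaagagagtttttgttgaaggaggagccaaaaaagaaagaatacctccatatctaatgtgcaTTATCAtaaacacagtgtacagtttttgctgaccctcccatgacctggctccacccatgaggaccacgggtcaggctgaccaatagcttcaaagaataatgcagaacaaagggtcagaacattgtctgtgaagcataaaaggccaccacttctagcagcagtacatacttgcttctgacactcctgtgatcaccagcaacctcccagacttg
*Alas2*, chrX:150547167-150547466, plus strand: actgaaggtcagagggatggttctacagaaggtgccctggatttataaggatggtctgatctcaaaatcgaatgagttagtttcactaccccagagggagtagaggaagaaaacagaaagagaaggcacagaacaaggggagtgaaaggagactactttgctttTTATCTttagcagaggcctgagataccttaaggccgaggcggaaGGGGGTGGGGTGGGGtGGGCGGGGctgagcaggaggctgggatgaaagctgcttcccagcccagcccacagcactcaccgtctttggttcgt
*Ermap*, chr4:119189946-119190245, minus strand: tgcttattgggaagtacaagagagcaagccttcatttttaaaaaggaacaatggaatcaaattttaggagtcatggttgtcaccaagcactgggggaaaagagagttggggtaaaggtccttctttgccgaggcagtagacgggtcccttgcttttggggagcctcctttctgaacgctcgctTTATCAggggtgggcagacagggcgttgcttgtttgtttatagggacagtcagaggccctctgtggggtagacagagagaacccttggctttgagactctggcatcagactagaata
*Rhag*, chr17:40810899-40811198, plus strand: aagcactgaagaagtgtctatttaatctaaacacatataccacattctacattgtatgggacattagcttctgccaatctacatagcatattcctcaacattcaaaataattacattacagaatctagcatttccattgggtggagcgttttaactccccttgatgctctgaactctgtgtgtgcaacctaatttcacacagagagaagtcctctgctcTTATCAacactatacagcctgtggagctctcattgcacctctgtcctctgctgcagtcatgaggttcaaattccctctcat
*Hemgn*, chr4:46404134-46404433, minus strand: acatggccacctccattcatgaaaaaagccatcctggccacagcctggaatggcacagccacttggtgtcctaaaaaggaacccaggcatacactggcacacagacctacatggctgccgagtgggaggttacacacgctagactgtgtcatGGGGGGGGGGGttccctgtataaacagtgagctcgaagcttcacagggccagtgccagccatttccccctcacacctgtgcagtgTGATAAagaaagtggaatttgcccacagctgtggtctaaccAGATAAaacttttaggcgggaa

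Each of these 5 windows held a match to the GATA letters, which lay 162 bases before the start in *Hbb-y*, 86 before it in *Alas2*, 67 before it in *Ermap* and 31 before it in *Rhag*. In *Hemgn* 1 match lay 13 bases before and another 28 bases after the start. The windows of *Epor*, *Epb42* and *Klf1* held 1 GATA match each, so that 8 of 8 promoters had at least 1, against 29.8% of the 32851 mouse promoters of 300 bases. The KLF letters occurred in 3 of the 8 (*Alas2*, *Hemgn* and *Epor*), against 49.5% of all promoters, and the matches in *Hemgn* overlap within 1 run of G. A match of letters is a description of the window and not a binding site, and members with flat values carried the GATA letters as well as members with wide ones.

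The members varied widely between arrays. Of the 15 probe sets, 10 spanned more than 2 log2 over the 18 arrays, against 26.3% of all probe sets, for which the median span was 1.12 log2. Counted as values more than 1 log2 above the median, 4, 6 and 9 of the 15 were high on fetal ETP arrays 1, 2 and 3, 0, 3 and 5 on fetal DN2 arrays and 0, 5 and 6 on fetal DN3 arrays. On adult ETP arrays 2 were high on each of the 3 arrays, on adult DN2 arrays 0, 1 and 2, and on adult DN3 arrays none, and every high value on an adult array belonged to *Car2* or *Hemgn*. Over all probe sets the share of such values on an array ranged from 1.81% to 3.3% in fetal and from 2.12% to 7.05% in adult groups.

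**Figure D1:**
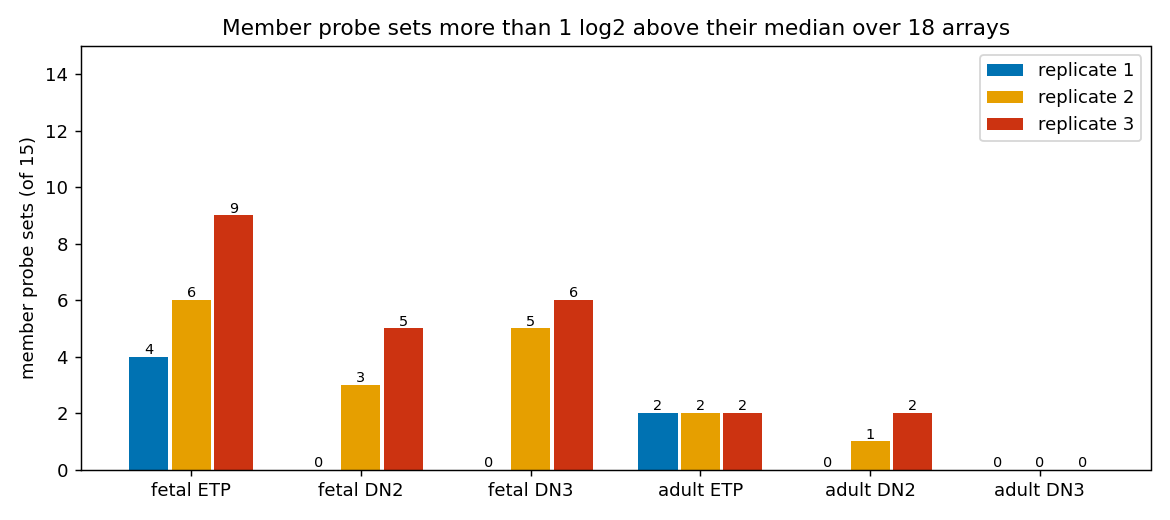
Number of the 15 member probe sets that lay more than 1 log2 above their median over the 18 arrays (vertical axis), for each array of the fetal and adult groups (horizontal axis), with colours for the replicate number. Fetal DN2 and fetal DN3 arrays of replicate 1 had none, whereas fetal ETP array 3 had 9.

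*Hbb-y* encodes the embryonic beta-like globin and is measured by 3 probe sets, of which the x_at types can also bind related transcripts. Probe set 1436823_x_at read 5.31, 9.96 and 10.68 log2 on fetal ETP arrays 1, 2 and 3, 0.12, 10.10 and 10.14 log2 on fetal DN2 arrays and -0.16, 11.22 and 10.57 log2 on fetal DN3 arrays. On the 9 adult arrays it stayed between -0.23 and 0.01 log2. The fetal arrays of replicates 2 and 3 were thus high at every stage, and replicate 1 was intermediate in ETP and near the adult values in DN2 and DN3. Probe set 1436717_x_at ran alongside, with 5.47, 0.05 and -0.14 log2 on the ETP, DN2 and DN3 arrays of fetal replicate 1 and 9.93 to 11.08 log2 on the other 6 fetal arrays. The remaining probe set, 1450621_a_at, read 0.04, 3.96 and 4.58 log2 in fetal ETP, 0.01, 4.53 and 2.85 log2 in fetal DN2 and -0.07, 5.97 and 2.35 log2 in fetal DN3, against -0.10 to 0.00 log2 on the adult arrays. On fetal ETP array 1 it was close to the adult values, unlike the x_at probe sets.

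*Alas2* encodes the erythroid form of the enzyme that starts haem synthesis. It read 0.03, 0.01 and 4.12 log2 on fetal ETP arrays 1, 2 and 3, 0.02, 0.00 and 5.07 log2 on fetal DN2 arrays and -0.04, 3.77 and 6.40 log2 on fetal DN3 arrays, against -0.07 to 0.00 log2 on adult arrays. All arrays of fetal replicate 3 were high, and of replicate 2 only the DN3 array. On fetal ETP array 2 and fetal DN2 array 2, the x_at probe sets of *Hbb-y* read near 10 log2 while *Alas2* stood at its median. The values of these genes thus differed in pattern. Centred values hold no signal over background, so low and absent *Alas2* RNA cannot be told apart here.

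*Slc4a1* encodes band 3, the anion exchanger of the red cell membrane. Its probe set 1434502_x_at read 0.73, 0.26 and 4.20 log2 in fetal ETP, 0.07, 0.06 and 3.01 log2 in fetal DN2 and -0.25, 1.92 and 5.56 log2 in fetal DN3, against -0.38 to 0.01 log2 on adult arrays. The high arrays were those on which *Alas2* was high. The probe sets of the gene disagreed in size. Probe set 1416464_at exceeded 1 log2 on fetal DN3 array 3 alone (2.23 log2) and lay between -0.10 and 0.38 log2 on the other 17 arrays, and 1431743_a_at spanned 0.17 log2 in all.

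**Figure D2:**
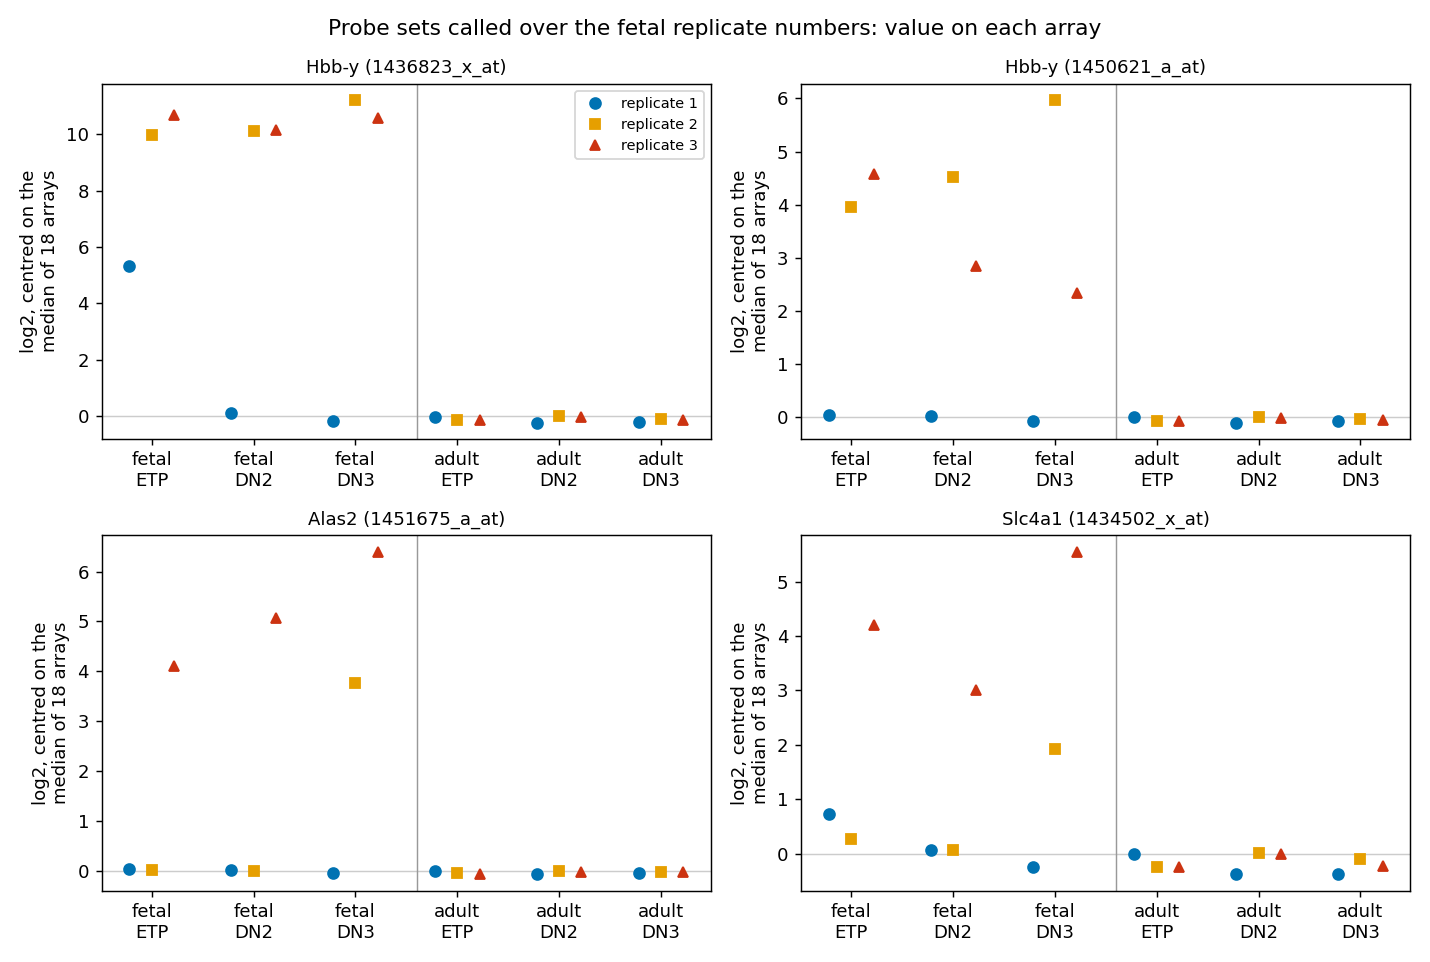
Centred log2 value on each of the 18 arrays (vertical axis) for the *Hbb-y* probe sets 1436823_x_at and 1450621_a_at, *Alas2* and *Slc4a1* (1434502_x_at), in the 3 fetal groups on the left and the 3 adult groups on the right, with colours and symbols for the replicate number. Fetal replicate 1 lies near the adult values except in ETP for 1436823_x_at (5.31 log2) and *Slc4a1* (0.73 log2), and fetal replicate 3 is high in all 4 panels.

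Whether values followed the replicate number over the 3 fetal stages was tested with number terms added to the group means. Of the 15 member probe sets 5 were called, the 3 of *Hbb-y*, *Alas2* and *Slc4a1* 1434502_x_at, against 32 of all 22626 probe sets (0.141%). Adjusted p (limma) was 0.0239 for both x_at probe sets of *Hbb-y*, 0.0399 for 1450621_a_at, 0.0319 for *Alas2* and 0.0274 for *Slc4a1*. The largest differences between number means were 8.71 and 8.68 log2 for the x_at probe sets, the highest and the next highest among all probe sets, 4.83 log2 for 1450621_a_at, 5.19 log2 for *Alas2* and 4.07 log2 for *Slc4a1*. The median of this difference was 0.94 log2 over the 15 members and 0.15 log2 over all probe sets. The genes were proposed with earlier results of these arrays in view, among them the *Hbb-y* pattern, so that their calls are not independent evidence of it.

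Pairs of fetal numbers were then compared. Their SE and p-values rest on 1 spread shared by the fetal and adult arrays. Replicate 3 minus replicate 1 was 8.71 ± 1.03 log2 for *Hbb-y* 1436823_x_at (SE, adjusted p = 0.0166, limma), 5.19 ± 0.62 log2 for *Alas2* (adjusted p = 0.0166) and 4.07 ± 0.48 log2 for *Slc4a1* 1434502_x_at (adjusted p = 0.0166), and 0.0619% of all probe sets were called higher. *Hbb-y* 1450621_a_at, at 3.27 ± 0.59 log2, missed the limit (adjusted p = 0.0804). Replicate 3 minus replicate 2 was 0.03 ± 1.03 log2 for *Hbb-y* 1436823_x_at (adjusted p = 0.993), 3.93 ± 0.62 log2 for *Alas2* (0.0484) and 3.51 ± 0.48 log2 for *Slc4a1* (0.0346), with 0.0663% of all probe sets called higher. The call of *Alas2* between replicates 3 and 2 was lost with centred arrays (adjusted p = 0.0652), a robust prior (0.0578) and the 9 fetal arrays alone (0.0639), and was kept in 4 of 18 fits without 1 array, against 6 of 18 for *Slc4a1*. Replicate 2 minus replicate 1 was 8.67 ± 1.03 log2 for *Hbb-y* 1436823_x_at and 4.83 ± 0.59 log2 for 1450621_a_at, both with an adjusted p of 0.0547, past the limit, and 0.0177% of all probe sets were called higher. All 3 *Hbb-y* probe sets were called here with array weights (adjusted p 0.0136 to 0.0138, limma). They were also called with adjustment outside the lowest 20% of SD (0.0437). Array weights also called 1450621_a_at between replicates 3 and 1 (0.0182).

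In the adult groups 0 of the 15 member probe sets were called over the replicate numbers by limma, against 0.667% of all probe sets, with 1 member (*Hemgn*) and 13.6% of all probe sets at an unadjusted p under 0.05. The difference in number terms between fetal and adult arrays was called for 0 members, against 0.0972% of all probe sets, with 5 members and 9.52% of all probe sets at an unadjusted p under 0.05. Its adjusted p was 0.0878, 0.093 and 0.123 for the *Hbb-y* probe sets, 0.113 for *Alas2* and 0.104 for *Slc4a1*, so that a difference between the ages in this respect was not called.

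The 5 calls over the fetal numbers depended on the arrays fitted. The fit of 18 arrays shares 1 spread between the ages, and the adult values of these probe sets were nearly flat. For *Hbb-y* 1436823_x_at the SD over the 3 arrays of a number was 0.06 to 0.12 log2 in adult and 0.28 to 3.08 log2 in fetal arrays. Fitted to the 9 fetal arrays alone, limma called 0 of the 5 (adjusted p 0.0509 to 0.064), and the differences were the same size. Leaving out 1 array of the 18 gave 5 called members without adult DN2 array 2 or 3, 4 without fetal ETP array 1 or fetal DN3 array 2, 3 without adult ETP array 1 or 2 or fetal ETP array 2, 2 without adult DN2 array 1, adult DN3 array 1 or fetal DN3 array 1, 1 without adult ETP array 3, fetal ETP array 3 or fetal DN3 array 3, and 0 without adult DN3 array 2 or 3 or any 1 fetal DN2 array.

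**Figure D3:**
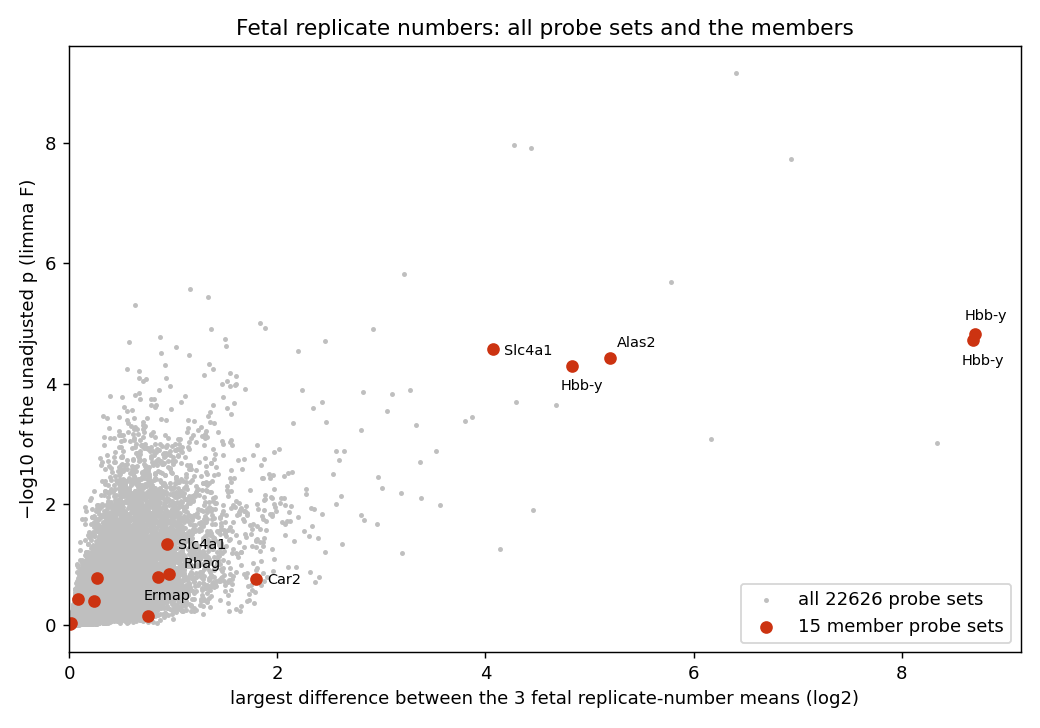
Largest difference between the 3 fetal replicate-number means in log2 (horizontal axis) against −log10 of the unadjusted p of the limma F test (vertical axis) for all 22626 probe sets (grey) and the 15 members (red, named where the difference exceeds 0.8 log2). The *Hbb-y* x_at probe sets lie farthest to the right, at 8.71 and 8.68 log2.

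Among the 32 probe sets called over the fetal numbers, 18 carried 1 symbol of a gene that is no member, 4 carried several symbols and 5 carried none. Nearest genes were sought outside the members, among probe sets with 1 symbol. Globin probe sets with several symbols were thus left out and may lie nearer than the genes named. Among the probe sets searched *Tent5c*, a poly(A) polymerase gene, was nearest to *Alas2* over the 18 arrays (root mean square difference 1.34 log2). It was also the nearest of those searched to the *Hbb-y* x_at probe sets (3.91 and 3.92 log2). It read 0.05, 2.74 and 7.22 log2 in fetal ETP, -0.01, 0.01 and 5.52 log2 in fetal DN2 and 3.32, 4.78 and 7.96 log2 in fetal DN3, against -0.17 to 0.27 log2 on adult arrays. Its largest number difference was 5.78 log2 (adjusted p = 0.00778, limma). Of the genes outside the members, *Cask* lay nearest to *Slc4a1* 1434502_x_at (1.05 log2) and next to *Alas2* after *Tent5c* (1.50 log2), and *Cd82* was also among the nearest to both (1.28 and 1.62 log2). The next genes after *Tent5c* for the *Hbb-y* x_at probe sets were *Txk* and *Car8* at 4.33 to 4.45 log2, and *Car8*, *Txk* and *Zfp991* were at 1.60 to 1.73 log2 from 1450621_a_at. *Hbb-b2* 1427866_x_at, a probe set for an adult beta globin, was next to *Slc4a1* 1434502_x_at at 1.24 log2, and *Cystm1*, *Heyl* and *Eps15* were nearest to *Slc4a1* 1416464_at at 0.22 to 0.26 log2.

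*Ermap* encodes a membrane protein of the immunoglobulin family found on erythroblasts. It read 1.67, 2.50 and 4.16 log2 on fetal ETP arrays 1, 2 and 3, against 0.00, -0.04 and 0.52 log2 on adult ETP arrays. All fetal ETP arrays were above all adult ETP arrays, and the other 12 arrays lay between -0.06 and 0.11 log2. *Ermap* was higher in fetal than in adult ETP by 2.62 ± 0.42 log2 (SE, adjusted p = 0.00144, limma), and it was called between the fetal stages (largest difference 2.80 log2, adjusted p = 0.000877). The SE and both p-values rest on 1 spread shared by all 6 groups. The SD of *Ermap* was 1.27 log2 in fetal ETP, 0.31 log2 in adult ETP and at most 0.06 log2 in each other group.

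*Rhag*, whose product is an ammonia and gas channel of the red cell membrane, read 0.18, 1.27 and 2.98 log2 in fetal ETP, against 0.00, -0.04 and -0.08 log2 in adult ETP, and -0.14 to 0.03 log2 on all other arrays. The groups did not overlap, but fetal ETP array 1 was close to the adult values. The difference of 1.52 ± 0.45 log2 was just within the limit (adjusted p = 0.0497, limma). *Hbb-y* was higher in fetal ETP by 8.81 and 8.75 log2 in its x_at probe sets without being called (adjusted p 0.0706 and 0.0731), and the SD of 1436823_x_at over the 3 fetal ETP arrays was 2.91 log2. With a replicate block both were called (adjusted p 0.031 and 0.0321). This block fits number effects common to both ages, whereas the largest number difference of 1436823_x_at was 8.71 log2 in fetal and 0.07 log2 in adult arrays.

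In fetal against adult ETP, 2 of the 15 member probe sets were called higher (*Ermap* and *Rhag*) and none lower, against 5.04% of all probe sets called higher, and the median difference was 0.61 log2 over the members and 0.07 log2 over all probe sets. *Epb42* 1417337_at and *Klf1* passed the adjusted p (0.0453 and 0.0346) and missed the fold limit, with 0.61 and 0.21 log2. In DN2 limma called 0 members, against 1.87% of all probe sets called higher, with 2 members and 14.4% of all probe sets at an unadjusted p under 0.05. In DN3 it called 0, against 1.6% of all probe sets called higher, with 4 members and 10.2% of all probe sets at such a p. The median member difference was 0.05 log2 in DN2 and 0.52 log2 in DN3, against 0.03 and 0.02 log2 over all probe sets. Fitted to the 6 ETP arrays alone, *Ermap* and *Rhag* had adjusted p of 0.113 and 0.229 while the *Hbb-y* x_at probe sets (0.0433 and 0.0464) and *Car2* (0.00105) were called. Leaving out 1 of the 18 arrays kept the call of *Ermap* in 18 of 18 fits (adjusted p at most 0.00678) and that of *Rhag* in 1 of 18 (0.00179 to 0.115). Such fits still used the spread shared by the 6 groups.

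*Car2*, a carbonic anhydrase of red cells and of early progenitors, read 4.01, 4.07 and 4.26 log2 in fetal ETP, against 6.62, 6.69 and 6.80 log2 in adult ETP. The arrays did not overlap, and the difference of -2.59 ± 1.19 log2 was not called (SE, adjusted p = 0.149). Beyond ETP it lay at -3.31, -2.07 and -0.11 log2 in fetal DN2 and -3.09, -3.39 and -1.15 log2 in fetal DN3, against -2.01, 1.87 and 1.72 log2 in adult DN2 and -3.92, -3.47 and 0.11 log2 in adult DN3. The stage difference was called at both ages, with 6.65 log2 between the fetal stages (adjusted p = 0.00517) and 9.13 log2 between the adult stages (adjusted p = 0.000524, limma).

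*Hemgn* encodes a nuclear protein of blood progenitors and erythroid cells. It read 0.82, 0.64 and 1.91 log2 in fetal ETP, -0.64, -0.25 and 0.25 log2 in fetal DN2 and -0.37, -0.90 and -0.39 log2 in fetal DN3. In the adult groups it read 1.92, 2.15 and 2.07 log2 in ETP, -0.55, 0.52 and 1.25 log2 in DN2 and -7.69, -4.52 and -0.61 log2 in DN3, where the 3 arrays were far apart. It was called between the adult stages (6.31 log2, adjusted p = 0.00776) and not between the fetal stages (1.68 log2, adjusted p = 0.705), and with the 9 adult arrays alone the adult call was lost (adjusted p = 0.146). Whether the stage differences of the ages differ was not tested.

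**Figure D4:**
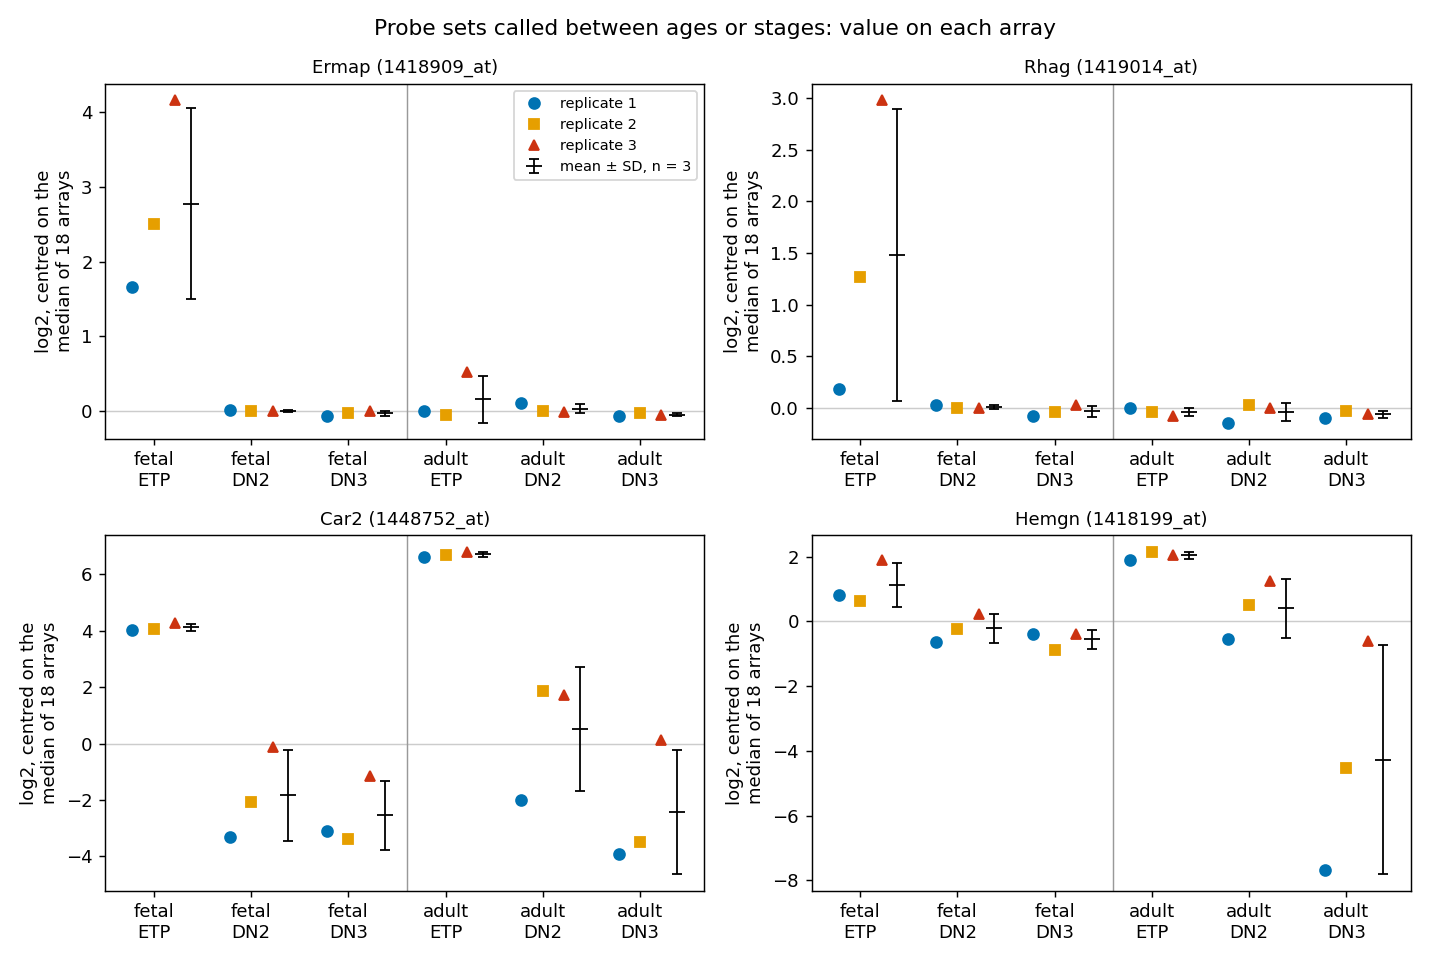
Centred log2 value on each array (vertical axis) for *Ermap*, *Rhag*, *Car2* and *Hemgn* in the fetal groups on the left and the adult groups on the right, with symbols for the replicate number and black bars for the mean ± SD of 3 arrays. *Ermap* and *Rhag* exceed 1 log2 in fetal ETP alone, and *Car2* is highest in ETP at both ages.

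Between the fetal stages 2 member probe sets were called (*Ermap* and *Car2*), against 4.87% of all probe sets, and between the adult stages 2 (*Car2* and *Hemgn*), against 10.4%. The median of the largest stage difference was 1.37 log2 over the members and 0.16 log2 over all probe sets in fetal groups, and 0.05 and 0.26 log2 in adult groups. Over the 6 groups 3 were called (*Car2*, *Ermap* and *Hemgn*, adjusted p 0.000221, 0.00109 and 0.0211), against 16.8% of all probe sets, and the median of the largest difference was 2.65 log2 over the members and 0.48 log2 over all probe sets.

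The genes with values nearest to those of the stage-dependent members over the 18 arrays were the following. *Mef2c*, a transcription factor gene, lay 0.81 log2 from *Car2*, followed by *Slco3a1* (1.32 log2) and *Rgs1* (1.72 log2). *Dusp6*, a phosphatase of MAP kinases, lay 0.92 log2 from *Hemgn*, with *Igfbp4* and *Deptor* at 0.93 and 0.99 log2. *Tgm2*, a transglutaminase, lay 0.20 log2 from *Rhag* and read 0.24, 0.75 and 2.33 log2 in fetal ETP, against -0.09 to 0.02 log2 on adult arrays, and *Tlcd4* and *Sh3gl3* lay at 0.27 log2. *Ndn*, *Eps8* and *Abhd5* lay 0.42, 0.51 and 0.54 log2 from *Ermap*. A low value of this measure comes more easily to a probe set with a small span, such as *Rhag*.

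The remaining members moved little. *Klf1*, the transcription factor that activates adult beta globin, read 0.05, 0.15 and 0.34 log2 in fetal ETP, against -0.01, -0.04 and -0.04 log2 in adult ETP, and spanned 0.41 log2 over all arrays. *Epor* stood at 0.59, 0.83 and 0.03 log2 in fetal DN3, against -0.06, -0.01 and -0.04 log2 in adult DN3, and near 0 elsewhere, and the difference in DN3 of 0.52 ± 0.13 log2 was not called (adjusted p = 0.0611, limma). Of the raised *Epor* arrays, fetal DN3 array 2 also had high *Alas2*, and fetal DN3 array 1 did not. *Epb42* spanned 1.14 log2 in 1417337_at and 0.23 log2 in 1417338_at.

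**Figure D5:**
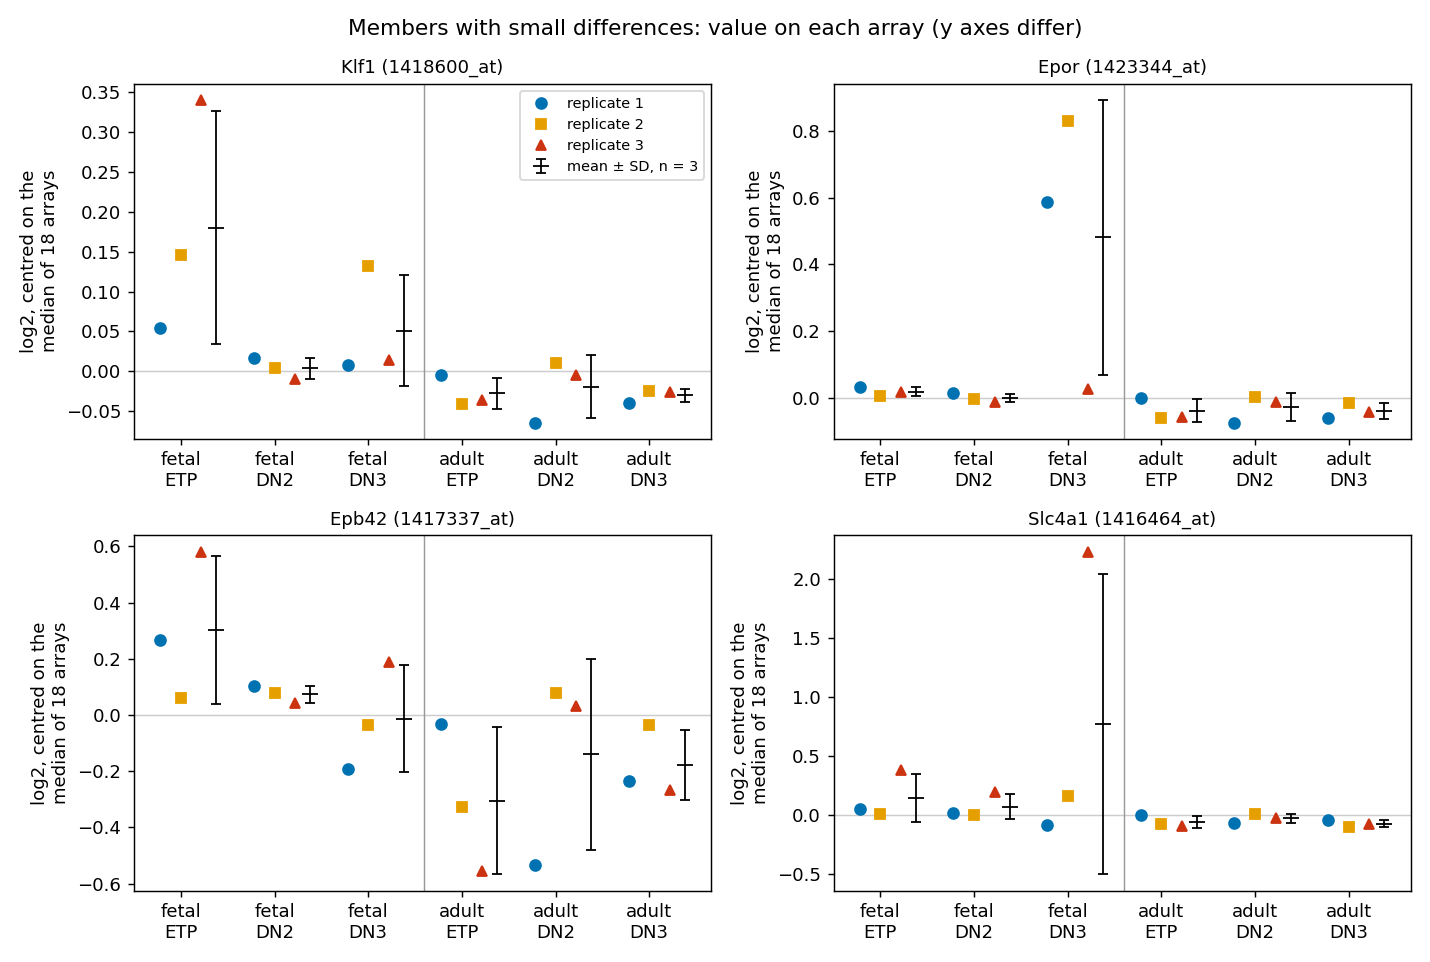
Centred log2 value on each array (vertical axis, scaled separately in each panel) for *Klf1*, *Epor*, *Epb42* (1417337_at) and *Slc4a1* (1416464_at) in the fetal and the adult groups, with symbols for the replicate number and black bars for the mean ± SD of 3 arrays. Apart from *Slc4a1* on fetal DN3 array 3 (2.23 log2), all values lie within 1 log2 of the median.

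Other genes of the pathway were read from 5 lists, chosen with earlier results known. Over the fetal replicate numbers limma called 0 of their 101 probe sets, with 7 at an unadjusted p under 0.05, against 0.141% called and 9.02% at such a p over all probe sets. The list of other globin genes (8 probe sets with 1 symbol) had no call in any comparison, and *Hbb-bh1* and *Hba-x*, embryonic globin genes like *Hbb-y*, spanned at most 0.63 log2. A further 4 probe sets carry several globin symbols each and are not assigned to a gene here. They were added after their values were seen. In all 4 every fetal array lay above every adult array, and the arrays of fetal replicate 1 lay below those of fetal replicates 2 and 3. The gap was narrow in 1417184_s_at and 1417714_x_at, where the lowest fetal array read 0.19 log2 and the highest adult array -0.19 log2. How many of all probe sets separate in this way was not counted, so no weight is given to the separation itself. In 1452757_s_at the arrays read 3.12 to 4.23 log2 in fetal replicate 1 and 6.89 to 8.37 log2 in fetal replicates 2 and 3, against -3.66 to -3.12 log2 in adult groups. The adult arrays were far apart in 1417184_s_at, which carries beta globin symbols. It read -1.81 to -0.36 log2 in adult ETP and -0.94 to -0.19 log2 in adult DN2, against -10.08, -10.29 and -2.10 log2 in adult DN3. Its fetal arrays read 0.19 to 2.57 log2, and it was called between the adult stages (6.94 log2, adjusted p = 0.015, limma). Probe sets 1417714_x_at, 1428361_x_at and 1452757_s_at were called over the fetal numbers, with largest differences of 6.41, 4.44 and 4.28 log2, and 1428361_x_at and 1452757_s_at were called higher in fetal than in adult cells at each of the 3 stages (8.74 to 10.40 log2). Of the 26 probe sets for haem synthesis and iron supply, 0 were called between the ages at any stage, and 3 between the adult stages, close to the 10.4% of all probe sets. These were *Abcb10*, a mitochondrial transporter of erythroid cells (2.73 log2, adjusted p = 0.00144), *Urod*, an enzyme of haem synthesis (1.52 log2, 0.00874), and *Fth1*, the ferritin heavy chain (1.30 log2, 0.0284). With the 9 adult arrays alone *Urod* and *Fth1* were not called (adjusted p 0.0673 and 0.121). *Abcb10* read 0.45, 0.40 and 2.02 log2 in fetal ETP, against 1.98, 2.08 and 1.37 log2 in adult ETP.

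Of the 28 probe sets for the red cell membrane and skeleton, 3 were called higher in fetal than in adult ETP, against 5.04% of all probe sets. All 3 measure 1 gene, *Slc2a1*, the glucose transporter of red and many other cells. They were higher by 2.59 ± 0.34, 1.76 ± 0.39 and 1.26 ± 0.35 log2 (adjusted p 0.000328, 0.0109 and 0.0364, limma). In DN2 the *Slc2a1* probe sets 1426599_a_at and 1434773_a_at were higher in fetal cells by 2.00 and 1.86 log2 (adjusted p 0.0103 and 0.00894), and *Mpp1*, a membrane scaffold, was lower (difference -1.09 log2, adjusted p = 0.00142). With the 6 DN2 arrays alone none of these 3 probe sets was called (adjusted p 0.225 for both of *Slc2a1* and 0.0641 for *Mpp1*). Of all probe sets 1.87% were called higher and 1.57% lower in fetal DN2. Between the fetal stages *Cd59a*, a complement regulator, *Mpp1* and *Tspan33* were called (2.55, 1.68 and 1.08 log2), against 4.87% of all probe sets. Blocking on the replicate number removed the call of *Tspan33* (adjusted p = 0.0584). *Mpp1* was also called between the adult stages (1.23 log2), the only call of this list there, against 10.4% of all probe sets.

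Of the 21 probe sets for erythroid transcription factors, *Gata1*, the GATA factor of red cells, megakaryocytes and mast cells, stood out in the later fetal stages. It read 0.04, 0.93 and 0.03 log2 in fetal ETP, 1.55, 1.30 and 1.09 log2 in fetal DN2 and 5.23, 4.75 and 4.13 log2 in fetal DN3, against -1.03 to -0.03 log2 on the 9 adult arrays. All fetal arrays lay above all adult arrays, a separation that was not counted over all probe sets. The difference from adult was 5.0 ± 0.30 log2 in DN3 (adjusted p = 1.76e-07), 1.59 ± 0.30 log2 in DN2 (0.00813) and 0.99 ± 0.30 log2 in ETP (0.0496, limma), of which the last was kept in 3 of 18 fits without 1 array. *Lmo2*, a partner of GATA factors in early progenitors, was lower in fetal than in adult ETP (difference -3.45 ± 0.23 log2, adjusted p = 8.83e-07), as was *Klf3*, a repressor related to *Klf1* (-1.63 ± 0.45 log2, 0.034). The stage differences of *Lmo2*, *Tal1* and *Bcl11a* were called at both ages. They were 5.10, 4.58 and 4.72 log2 over the fetal stages and 8.59, 5.70 and 4.37 log2 over the adult stages. Also called were *Nfe2* over the fetal stages (5.84 log2) and *Lyl1* over the adult stages (7.22 log2, adjusted p = 0.0148). *Lyl1* was not called with the 9 adult arrays alone (0.177). In this list 8 probe sets were called between the fetal stages, against 4.87% of all probe sets, and 9 between the adult stages, against 10.4%. In fetal against adult ETP, 1 was called higher and 2 lower, against 5.04% and 3.45% of all probe sets. Only the 4 with the largest differences are named for each age, so a gene missing at 1 age may still have been called there. *Nfe2* fell in the adult groups too, from a mean of 0.57 log2 (ETP) to 0.31 (DN2) and -3.27 (DN3).

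Of the 18 probe sets for red cell enzymes and late erythroid genes, *Ube2o*, an enzyme that marks proteins for removal as red cells mature, and *Cat*, catalase, were higher in fetal than in adult ETP by 2.77 ± 0.69 and 1.04 ± 0.18 log2 (adjusted p 0.0204 and 0.00201, limma). These were the only calls of the list in ETP, against 5.04% of all probe sets called higher. *Ube2o* and *Gpx1*, a glutathione peroxidase, were called between the adult stages (3.37 and 1.46 log2), against 10.4% of all probe sets. Neither was called with the 9 adult arrays alone (adjusted p 0.167 and 0.0652). With the 6 arrays of the ETP comparison alone *Ube2o*, *Cat*, *Gata1* and *Klf3* were not called (adjusted p 0.0592, 0.0519, 0.162 and 0.0952).

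Markers of other cells that a thymus or its blood could hold were read in the same way, in 10 lists with 134 probe sets. Over the fetal replicate numbers limma called 0 of them, with 3 at an unadjusted p under 0.05, against 0.141% and 9.02% of all probe sets. Of the 10 platelet and megakaryocyte probe sets 9 spanned under 0.5 log2, against a median span of 1.12 log2 over all probe sets. The remaining 1 was called higher in fetal than in adult ETP, between the fetal stages and over the 6 groups. The mean level of the 10 per array was -0.08 to 0.28 log2 in fetal and -0.31 to 0.02 log2 in adult groups. Of the 15 hepatocyte probe sets 12 spanned under 0.5 log2 with mean levels of -0.36 to 0.26 log2 in fetal replicate 1, -0.27 to 0.21 log2 in replicate 2 and -0.11 to 0.14 log2 in replicate 3. The mast cell list (12 probe sets) was highest on fetal ETP array 2 (1.96 log2), with 1.02 and 0.36 log2 on fetal ETP arrays 1 and 3 and 0.07 to 1.05 log2 on adult ETP arrays. Myeloid markers (17 probe sets) averaged 1.31 to 1.53 log2 in fetal ETP, against 2.58 to 3.26 log2 in adult ETP. T lineage genes (11 probe sets) averaged -3.01 to -1.94 log2 in fetal ETP, against -5.49 to -4.28 log2 in adult ETP. Of these 11 probe sets, 6 were called higher in fetal ETP (median of the 11 2.04 log2), against 5.04% of all probe sets. In DN3 the T lineage genes averaged 1.30 to 1.68 log2 in fetal cells, against 1.08 to 1.62 log2 in adult cells. B cell, NK cell, thymic epithelial, endothelial and mesenchymal lists ranged from -0.24 to 0.89 log2 in mean level over the fetal arrays and from -0.42 to 0.91 log2 over the adult arrays. In fetal against adult ETP, 1 endothelial probe set of 13 was called higher and 4 lower, and 2 thymic epithelial probe sets of 16 were called higher. Over all probe sets 5.04% were called higher and 3.45% lower. The part of other cell types in the values of the members was not tested.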

How the data were processed

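Gene expression was measured on Affymetrix Mouse Genome 430A arrays. The deposited values are log2 intensities that the authors made with GCRMA (its version is not given in the sources used here), centred on each probe set's median over the 18 arrays, so that no filter on intensity was possible. All columns were matched to samples (0 were not), and columns were read by their labels. Gene symbols came from the platform annotation, in which 20380 probe sets carry 1 symbol, 691 several and 1555 none. Probe sets with several symbols were not assigned to a gene.

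Groups were compared in R 4.3.3 with limma 3.58.1 by 1 model of the 6 group means. Replicate numbers were tested within each age by adding number terms to that model. A call needed an adjusted p under 0.05 and a difference of at least 1.8-fold. The steps were tested on simulated data. Tables and plots were made with Python 3.11.15, numpy 2.4.6, pandas 2.3.3 and matplotlib 3.10.9.

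The members and lists were chosen with earlier results of these data known. Named were all probe sets of the members, up to 4 called probe sets with the largest difference per erythroid list and comparison, and, for each member probe set spanning over 2 log2, the 3 other genes with the smallest root mean square difference over the 18 arrays. The globin probe sets with several symbols were added after their values were seen.

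Replicate numbers come from the labels. Deviations from the group means correlated between fetal arrays of the same number in all 9 pairs (r 0.312 to 0.597), against -0.625 to 0.163 in the 18 pairs of different numbers, so the numbers paired the fetal arrays. Between fetal and adult arrays of the same stage, 3 of 3 pairs exceeded 0.1 in DN2, 1 of 3 in ETP and 0 of 3 in DN3. Alternatives were the fold threshold, array weights, centring of arrays, a robust prior, adjustment without the 20% of probe sets with the lowest SD, a replicate block, fits to the compared arrays alone, the one-way test of the methods and leaving out each array. Differences between pairs of fetal numbers were added after the data were seen.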

Additional observations from a re-analysis of the deposited data

Results flagged for a closer look

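The replicate-number terms of fetal and adult arrays differed by the limma test of the difference itself for *Tent5c* (adjusted p = 0.0429). The same test was passed by 3 probe sets that carry several globin symbols, 1417714_x_at (adjusted p = 0.000358), 1428361_x_at (0.00205) and 1452757_s_at (0.00205). None of the member probe sets passed it.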

How the results depend on the processing

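Of 1695 values of members and other named probe sets under other settings, 1628 kept their side of the threshold, 38 lost it and 29 gained it. Fits that left out 1 array are not in these counts, and a value called in neither fit counted as kept. No value was counted as reversed, which requires a change of sign. The results over stages, replicate numbers and the 6 groups could not reverse in this sense, because their largest difference between means is never negative. In fetal against adult ETP, called members numbered 4 without a fold threshold, 1 with array weights, 1 with centred arrays, 1 with a robust prior and 4 with the replicate block, where *Hbb-y* was added (adjusted p 0.031 and 0.0321). With array weights 1278 probe sets and 3 members were called in DN3, 2470 probe sets between fetal stages, 6454 probe sets and 6 members over the 6 groups, 1205 over the fetal numbers, 550 with 1 member over the adult numbers and 1311 with 2 members between the ages. With the compared arrays alone, 1006 were called in ETP and 162 in DN2, 957 with 1 member between adult stages, 272 with 0 members over the fetal numbers and 0 over the adult numbers. Over the 6 groups the replicate block gave 5 members and the unadjusted one-way test of the methods 6. The replicate block changed no other call of a member.

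Leaving out 1 array gave 1254 to 2130 calls in ETP with 1 to 3 members, 415 to 969 in DN2, 0 to 2 members in DN3, 2 to 5 members over the 6 groups, 6 to 52 calls over the fetal numbers with 0 to 5 members, 33 to 484 over the adult numbers, and 6 to 197 between the ages with 0 to 2 members. The cause of these changes was not tested. The number of arrays limits the precision, and centred values hold no signal over background.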
